A study of Mus musculus with 9 samples.

Results

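The Fc gamma receptors of the mouse, with the signalling chain that the activating ones share, were followed through 9 aortas of Apoe-/- mice. The members are Fcgr1, Fcgr2b, Fcgr3, Fcgr4 and Fcer1g, taken by their names from the deposited table, so 5 genes of 54532. All the mice lacked apolipoprotein E, a standard model of atherosclerosis, and were 6 to 8 weeks old when a regimen of 24 weeks was given. HFD_IO mice (3 aortas) ate a high fat diet and were injected in the peritoneum with ammonium iron(III) citrate to overload them with iron. HFD mice (3 aortas) ate the high fat diet alone, and CD mice (3 aortas) ate chow. No mouse with an intact Apoe gene was analysed here, and the labels give neither sex nor iron dose. The treatment labels name no injection for HFD or CD, so iron and injection cannot be told apart. The labels do not say whether a library came from 1 animal, so p-values measure the spread between these samples.

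Fc gamma receptors bind the constant part of immunoglobulin G (IgG) and let myeloid cells take up and respond to immune complexes. The activating receptors signal through the gamma chain encoded by Fcer1g, whose cytoplasmic tail carries an activation motif (ITAM) that is phosphorylated by Src family kinases and then recruits the kinase Syk. Fcgr2b is the inhibitory receptor: its own tail carries an inhibitory motif (ITIM) that recruits the phosphatase SHIP, encoded by Inpp5d. In atherosclerotic plaques these receptors are known mainly from macrophages, which can take up immune complexes of oxidised lipoprotein through them.

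Fcgr1, the high affinity receptor, lies on the minus strand of chromosome 3 (ENSMUSG00000015947, 96282909 to 96293969, GRCm38). The other members lie on chromosome 1. Fcgr2b (ENSMUSG00000026656, 170958617 to 170976547), Fcgr4 (ENSMUSG00000059089, 171018920 to 171029761, the only member on the plus strand) and Fcgr3 (ENSMUSG00000059498, 171051174 to 171064935) follow each other. Fcer1g (ENSMUSG00000058715, 171229572 to 171234365) starts 169.43 kb beyond the start of Fcgr3. The identifiers and coordinates of all 5 genes are those of GENCODE M21.

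The sequences around the members' start sites were searched for a word that the myeloid factor PU.1, encoded by Spi1, is known to favour. Any part of this word in the levels of the members was not tested. The letters GAGGAA, read on either strand, were in the promoters of 3 of the 5 members, the activating receptors. They are shown here with that word in capitals, in RefSeq sequence of GRCm38.p6, from 250 bases before to 50 bases after the start site and read along the gene, so the word appears as its complement TTCCTC. The windows are chr3:96293920-96294219 on the minus strand for Fcgr1, chr1:171059354-171059653 on the minus strand for Fcgr3 and chr1:171018676-171018975 on the plus strand for Fcgr4.
Fcgr1: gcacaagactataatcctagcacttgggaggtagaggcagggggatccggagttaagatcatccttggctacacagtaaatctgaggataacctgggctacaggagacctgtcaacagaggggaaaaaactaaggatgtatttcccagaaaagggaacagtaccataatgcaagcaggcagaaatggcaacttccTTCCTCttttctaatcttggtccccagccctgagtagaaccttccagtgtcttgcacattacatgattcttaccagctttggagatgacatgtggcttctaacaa
Fcgr3: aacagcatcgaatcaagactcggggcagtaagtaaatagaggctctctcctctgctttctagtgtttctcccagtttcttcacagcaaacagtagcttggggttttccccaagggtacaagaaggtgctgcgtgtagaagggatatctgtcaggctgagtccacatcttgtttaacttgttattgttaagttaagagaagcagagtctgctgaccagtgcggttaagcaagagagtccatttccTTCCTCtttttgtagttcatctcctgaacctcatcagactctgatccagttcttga
Fcgr4: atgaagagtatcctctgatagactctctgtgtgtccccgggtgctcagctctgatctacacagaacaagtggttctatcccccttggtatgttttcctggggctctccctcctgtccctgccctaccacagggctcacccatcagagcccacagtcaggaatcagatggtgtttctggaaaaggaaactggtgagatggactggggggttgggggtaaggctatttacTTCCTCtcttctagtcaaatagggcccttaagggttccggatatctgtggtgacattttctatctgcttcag
The word begins 55 bases before the start site in Fcgr1 and 22 bases before it in Fcgr4. In Fcgr3 the word begins 6 bases before the start site shown and 15 bases before another RefSeq start site. It was in 28.3% of the 32851 promoters of the same length in the RefSeq table, so a match is common. Its letters were not in these windows of Fcgr2b and Fcer1g. Fcgr1 and Fcgr3, on different chromosomes, share the run of 14 bases TTCCTTCCTCTTTT, which holds the word and was chosen after the sequences were seen. That run was in 5 of the 32851 windows, from 4 genes: Fcgr1, Fcgr3, Dock2 and Entpd1. The STAT type word TTCNNNGAA was in the Fcgr1 window only among the members, and in 8.3% of all windows. The core of the interferon-stimulated response element, bound by IRF factors, was in the Fcgr4 window only among the members, and in 3.44% of all windows. TATAAA was in no member's window and in 13.6% of all windows. The table places the start of Fcgr3 further upstream than RefSeq does, so its window is that of the RefSeq transcript.

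Levels are given as FPKM, which divides reads by gene length and by a scale for each library, and libraries are named by their column. That scale did not follow the recovered reads. A read in 1 kb was 0.0615 FPKM in HFD_3, with 18158642 reads, and 0.0544 FPKM in CD_1, with 16660963 reads. It ran from 0.0571 to 0.0615 FPKM in HFD, 0.0541 to 0.0574 FPKM in HFD_IO and 0.0544 to 0.0567 FPKM in CD. A read therefore counted for more in every HFD library than in every CD library. Between 16660963 and 18308450 reads were recovered per library, and the members were covered by 43 to 5193 reads in a library. The standard error from counting alone is therefore at most 15.2% of a value, for Fcgr4 in CD_3. Smooth muscle markers, which define the aortic wall, were abundant in every library, with 7 genes summing to between 2470 and 4216 FPKM in HFD_IO, between 6905 and 8069 FPKM in HFD and between 5358 and 5971 FPKM in CD. Of these 7, 1 rose in HFD against CD, 6 fell in HFD_IO against HFD (median -1.13) and 5 fell in HFD_IO against CD. Of all tested genes 21.8% rose and 17.6% fell in HFD against CD. These shares were 14.1% and 14.5% in HFD_IO against HFD, and 17.5% and 15% in HFD_IO against CD. Of 7 endothelial markers 6 fell in HFD against CD (median -1.46), 2 rose in HFD_IO against HFD and 3 fell in HFD_IO against CD. The part of these shifts in the results was not tested. HFD_3 stood apart by its fat markers, with 7 white adipocyte genes summing to 2763 FPKM beside 256 to 1663 FPKM in the other 8 libraries. Brown adipocyte genes summed to 558 to 1425 FPKM in HFD, above 183 to 261 FPKM in HFD_IO and 224 to 437 FPKM in CD. Of 5 tested, 3 rose and 1 fell in HFD against CD, and 3 fell in HFD_IO against HFD. Skeletal muscle genes summed to 83.0 FPKM in HFD_2, 52.5 FPKM in HFD_3 and at most 12.5 FPKM in any other library. The part of brown fat and muscle in the results was not tested. CD_1 stood apart from CD_2 and CD_3, with a chi-square per degree of freedom of 52.9 and 56.4 against them and 6.41 between CD_2 and CD_3. Pairs within HFD ran from 26.2 to 55.0, the latter between HFD_1 and HFD_3, and pairs within HFD_IO from 27.6 to 45.4. Changes are log2 fold changes of FPKM + 1 from limma, with the standard error (SE) and an adjusted p over 13883 genes, and the threshold was 0.05.

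All 5 members were higher in HFD than in CD and higher again in HFD_IO than in HFD, and in none of them did the libraries of any 2 groups overlap. In HFD against CD 5 of 5 rose, where 21.8% of all tested genes did and 39.4% changed in either direction. In HFD_IO against HFD 5 of 5 rose, where 14.1% of all tested genes did and 28.6% changed in either direction. This count was 3 without HFD_1, HFD_3 or HFD_IO_2, and the call of Fcgr4 was also lost without HFD_IO_1 or HFD_2. In HFD_IO against CD 5 of 5 rose, where 17.5% of all tested genes did and 32.5% changed in either direction. Groups without overlap, with the higher values in the first-named group, were found in 28.2% of tested genes for HFD against CD, 24.1% for HFD_IO against HFD and 24.3% for HFD_IO against CD. The 3 comparisons share libraries, so they are not independent of each other.

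Fcgr3, the low affinity activating receptor, was the most abundant of the 4 receptors in every library. It stood at 148, 172 and 103 FPKM in HFD_IO aortas, at 66.8, 63.0 and 51.9 FPKM in HFD aortas and at 18.5, 16.5 and 13.7 FPKM in CD aortas. HFD_IO_3 was the lowest of its group and stayed above every HFD aorta, and HFD_3 was the lowest of its group and stayed above every CD aorta. Fcgr3 rose by 1.84 on the log2 scale in HFD against CD (SE 0.20, limma adjusted p = 0.000566) and by 1.18 in HFD_IO against HFD (SE 0.20, limma adjusted p = 0.0039). In FPKM the HFD_IO mean was 8.7 times the CD mean.

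Fcgr4, an activating receptor that in the mouse binds certain IgG subclasses with intermediate affinity, showed the largest ratio of means between HFD and CD among the members, 5.46. Its levels were 33.2, 46.1 and 20.2 FPKM in HFD_IO aortas, 17.8, 18.2 and 10.8 FPKM in HFD aortas and 4.03, 2.66 and 1.88 FPKM in CD aortas. The highest HFD aorta was at 18.2 FPKM and the lowest HFD_IO aorta at 20.2 FPKM, so those groups are separated by little. The log2 change was 2.11 in HFD against CD (SE 0.32, limma adjusted p = 0.00179) and 1.00 in HFD_IO against HFD (SE 0.32, limma adjusted p = 0.0443). The second call was lost without HFD_IO_1 (limma adjusted p = 0.111), HFD_IO_2 (0.136), HFD_1 (0.0599), HFD_2 (0.0637) or HFD_3 (0.145), and its limma adjusted p ranged from 0.0194 to 0.145 over the alternatives without the macrophage covariate.

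Fcgr1, the only receptor of the family with high affinity for monomeric IgG, rose in both steps. It stood at 11.1, 20.3 and 12.1 FPKM in HFD_IO aortas, at 6.98, 8.96 and 6.09 FPKM in HFD aortas and at 3.25, 3.00 and 2.10 FPKM in CD aortas. HFD_IO_2 was well above the other HFD_IO aortas. Fcgr1 rose by 1.14 in HFD against CD (SE 0.23, limma adjusted p = 0.0054) and by 0.86 in HFD_IO against HFD (SE 0.23, limma adjusted p = 0.0231). The second call was lost without HFD_IO_2, which left a change of 0.61 (limma adjusted p = 0.0542), without HFD_1 (0.0545) and without HFD_3 (0.0801). The first was lost with the white adipocyte markers as a covariate (0.82, limma adjusted p = 0.0671).

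Fcgr2b, the inhibitory receptor, rose with the activating ones. Its levels were 25.1, 29.0 and 17.5 FPKM in HFD_IO aortas, 11.9, 11.4 and 9.96 FPKM in HFD aortas and 3.33, 3.42 and 3.33 FPKM in CD aortas. The CD aortas were nearly alike, at 3.36 ± 0.0495 FPKM (SD, n = 3), and the HFD_IO aortas varied most, at 23.9 ± 5.88 FPKM (SD, n = 3). The change was 1.47 in HFD against CD (SE 0.16, limma adjusted p = 0.000646) and 1.02 in HFD_IO against HFD (SE 0.16, limma adjusted p = 0.00345). Fcgr2b and Fcgr3 have similar extracellular parts, and 9.58% of the distinct 50-base windows of the annotated Fcgr3 transcripts also occur in Fcgr2b transcripts, so a small part of their reads may have been split between them. Fcgr1, Fcgr4 and Fcer1g shared no such window with any other annotated gene.

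Fcer1g, the common chain, was the most abundant member. It stood at 238, 306 and 184 FPKM in HFD_IO aortas, at 105, 97.1 and 72.0 FPKM in HFD aortas and at 34.5, 31.1 and 26.3 FPKM in CD aortas. HFD_IO_2 was the highest library for every member. Fcer1g rose by 1.53 in HFD against CD (SE 0.21, limma adjusted p = 0.00123) and by 1.39 in HFD_IO against HFD (SE 0.21, limma adjusted p = 0.00281). Its ratio of means between HFD_IO and HFD, 2.66, was above those of the receptors, which ran from 1.97 for Fcgr1 to 2.33 for Fcgr3. It ranked 173 among 13883 genes by the size of its rise in HFD_IO against HFD.

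**Figure D1:**
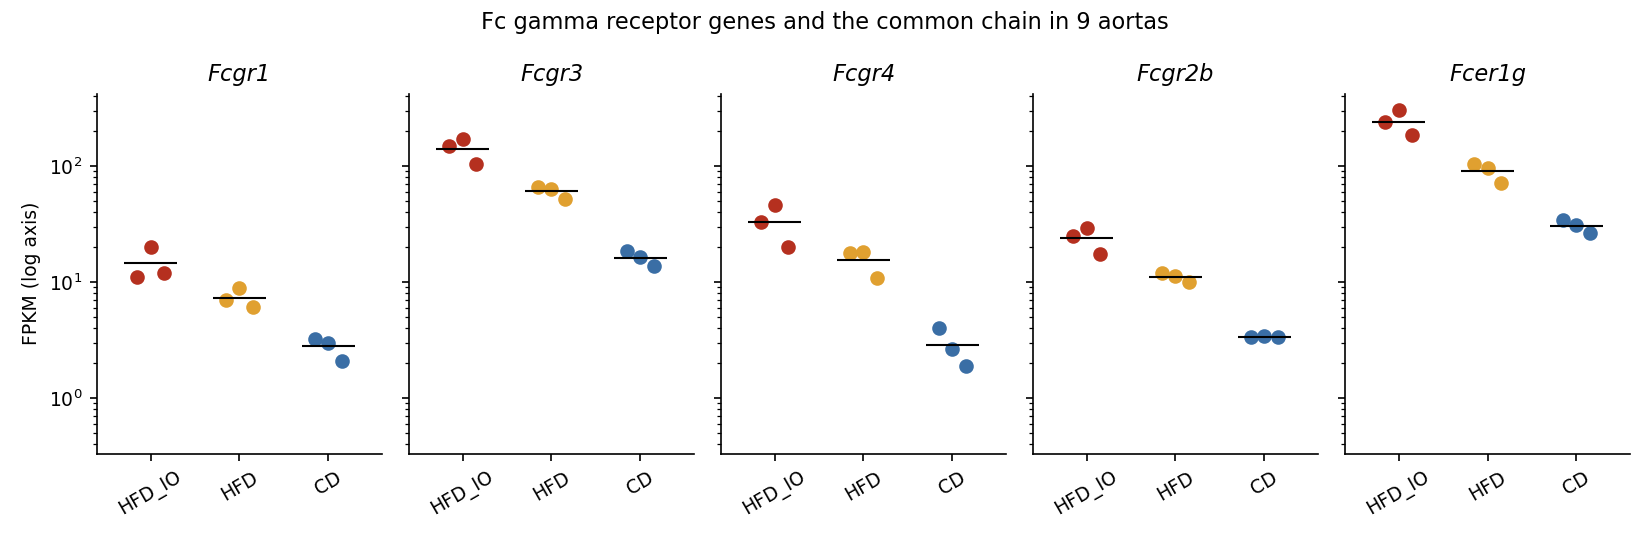
FPKM of the 5 members (log axis) in each of 9 aortas, with HFD_IO, HFD and CD from left to right and a black line at each group's mean. Every member is highest in HFD_IO and lowest in CD with no overlap, and Fcgr4 has the narrowest gap, between 20.2 FPKM in HFD_IO_3 and 18.2 FPKM in HFD_2.

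Against chow, the high fat diet with iron gave changes of 2.00 for Fcgr1, 2.48 for Fcgr2b, 2.92 for Fcer1g, 3.02 for Fcgr3 and 3.11 for Fcgr4. The limma adjusted p of these ran from 1.79e-05 for Fcgr3 to 0.000256 for Fcgr1, and all 5 calls held under each of 18 alternatives without the macrophage covariate. In HFD_IO against HFD the 95% confidence intervals overlap among all 5 members. With values rescaled to TPM, the median over all genes was -0.30 in HFD against CD, 0.14 in HFD_IO against HFD and -0.23 in HFD_IO against CD, and every member stayed called in the same direction.

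**Figure D2:**
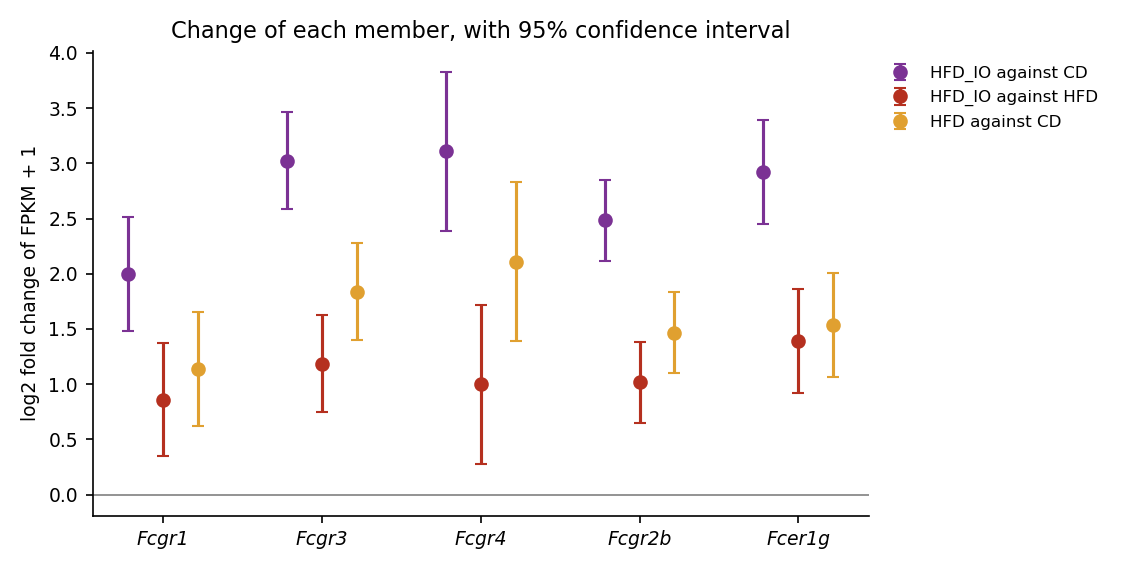
Log2 fold change of FPKM + 1 for each member with its 95% confidence interval (limma, 3 libraries a group), for HFD_IO against CD, HFD_IO against HFD and HFD against CD. All intervals lie above 0, and that of Fcgr4 in HFD_IO against HFD, from 0.28 to 1.72, is the widest of its comparison.

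The ratio of activating to inhibitory transcripts overlapped between groups while the family rose, for CD through CD_1 alone. The 4 receptors together summed to 218, 267 and 153 FPKM in HFD_IO aortas, to 103, 101 and 78.8 FPKM in HFD aortas and to 29.1, 25.6 and 21.0 FPKM in CD aortas. The summed FPKM of Fcgr1, Fcgr3 and Fcgr4 was 7.66, 8.20 and 7.76 times that of Fcgr2b in HFD_IO aortas, 7.69, 7.93 and 6.91 times in HFD aortas and 7.73, 6.49 and 5.30 times in CD aortas. These ratios overlap between all groups, and the CD aortas span the widest range. CD_2 and CD_3 were below every aorta on the high fat diet. Such a ratio depends on the gene lengths in the table, where Fcgr2b is listed at 5790 bases and the activating receptors at 1256 to 2589 bases, so its size depends on those lengths. Fcgr3 made up 64.3% to 68.2% of the receptor sum in HFD_IO, 62.0% to 65.9% in HFD and 63.5% to 65.2% in CD. The share of Fcgr1 was 5.08% to 7.89% in HFD_IO, 6.74% to 8.83% in HFD and 10.01% to 11.7% in CD, so every CD aorta was above every aorta on the high fat diet. The share of Fcgr4 was 13.2% to 17.3% in HFD_IO, 13.7% to 17.9% in HFD and 8.96% to 13.8% in CD, so HFD_IO_3 and HFD_3 were below CD_1.

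Differences between members within a library were tested by exact permutation over libraries, which with 3 against 3 cannot give a two-sided p below 0.1. The log2 level of Fcgr3 minus that of Fcgr2b was 2.51 ± 0.0121 in HFD_IO, 2.34 ± 0.0647 in HFD and 1.97 ± 0.204 in CD (SD, n = 3 each). The groups did not overlap, and each of the 3 comparisons had an exact permutation p of 0.1, the smallest possible, and 0.15 after adjustment over 21 tests. The difference of Fcgr4 from Fcgr2b was 0.41 ± 0.227 in HFD_IO, 0.43 ± 0.279 in HFD and -0.21 ± 0.404 in CD (SD, n = 3 each; exact permutation p = 1 for HFD_IO against HFD and 0.2 for HFD against CD). The difference of Fcgr1 from Fcer1g was -4.00 ± 0.273 in HFD_IO, -3.46 ± 0.231 in HFD and -3.07 ± 0.0687 in CD (SD, n = 3 each; exact permutation p = 0.1 in each comparison). Adding 1 to FPKM compresses low values, and with 0.1 added the HFD against CD difference was 0.21 in place of 0.37 for Fcgr3 minus Fcgr2b and -0.19 in place of -0.40 for Fcgr1 minus Fcer1g.

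The common chain did not keep a fixed ratio to the receptors. Fcer1g stood at 1.24, 1.29 and 1.36 times the summed FPKM of the 3 activating receptors in HFD_IO aortas, at 1.14, 1.08 and 1.05 times in HFD aortas and at 1.34, 1.40 and 1.49 times in CD aortas. HFD was below both other groups without overlap, while HFD_IO and CD overlapped. Tyrobp encodes DAP12, the related ITAM adaptor that pairs with other myeloid receptors such as TREM2, and its ratio to Fcer1g was looked at after its values were seen. Tyrobp stood at 295, 416 and 229 FPKM in HFD_IO aortas, at 243, 236 and 152 FPKM in HFD aortas and at 29.4, 29.3 and 24.0 FPKM in CD aortas. It rose by 2.86 in HFD against CD (SE 0.24, limma adjusted p = 0.000279) and was not past the threshold in HFD_IO against HFD (0.56, SE 0.24, limma adjusted p = 0.114). Fcer1g was accordingly 0.808, 0.735 and 0.805 times Tyrobp in HFD_IO aortas, 0.431, 0.411 and 0.475 times in HFD aortas and 1.17, 1.06 and 1.10 times in CD aortas. The groups do not overlap in this ratio.

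**Figure D3:**
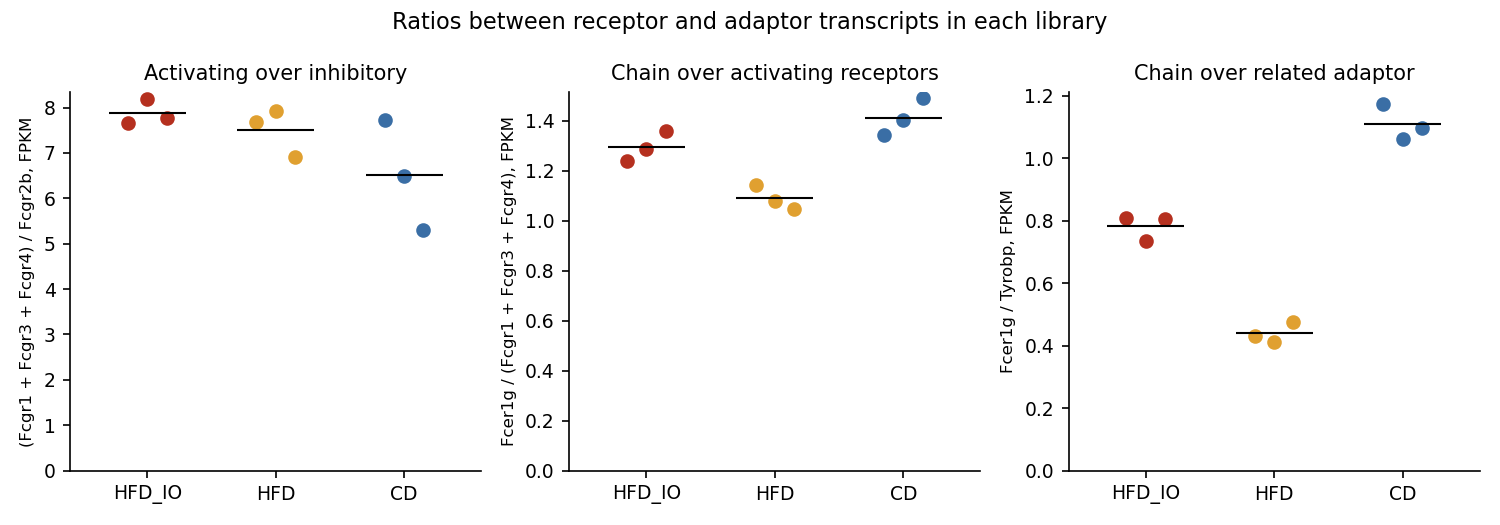
Ratios of FPKM in each aorta, with HFD_IO, HFD and CD from left to right and a black line at each group's mean: activating receptors over Fcgr2b, Fcer1g over the activating receptors, and Fcer1g over Tyrobp, each axis starting at 0. The first ratio overlaps between all groups, for CD through CD_1 alone. The third lies between 0.735 and 0.808 in HFD_IO, between 0.411 and 0.475 in HFD and between 1.06 and 1.17 in CD.

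A list of ITAM and ITIM signalling genes was set beside the members. It holds kinases, phosphatases and adaptors downstream of Fc receptors, and also Tyrobp, Pirb and Sirpa, which belong to other receptors of this kind. Of 25 genes, all tested, 17 rose and 2 fell in HFD against CD, where 21.8% of all tested genes rose and 17.6% fell. The median was 0.98 beside 0.06 over all genes. The largest changes were in Tyrobp (2.86), Lat2 (1.91) and Blnk (1.46), which encode adaptors, in Pik3r5 (1.51), a subunit of a phosphoinositide 3-kinase, in the inhibitory receptor gene Pirb (1.46) and in Lyn (1.22), a Src family kinase. The 2 that fell, named after their values were seen, were Cbl (-0.60), a ubiquitin ligase that turns off tyrosine kinase signalling, and Gab2 (-0.74), an adaptor. The count was 12 in all with the white adipocyte covariate.

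Iron with the high fat diet came with rises in 21 of the 25 in HFD_IO against HFD and with no fall. There 14.1% of all tested genes rose, and the median was 0.92 beside 0.00 over all genes. The largest rises were those of Pirb (1.51), the Src family kinase Fgr (1.40), Pik3r5 (1.31), Lat2 (1.29), the inhibitory receptor gene Sirpa (1.21) and Vav1 (1.18), a guanine nucleotide exchange factor. Cbl and Gab2 rose here by 0.92 and 0.81. The count was 12 without HFD_IO_2 and 6 with the white adipocyte covariate. Syk, the kinase that binds the ITAM, was at 16.2, 18.3 and 14.5 FPKM in HFD_IO aortas, at 8.61, 11.3 and 5.48 FPKM in HFD aortas and at 2.87, 3.81 and 4.35 FPKM in CD aortas, and was named for its role. Syk rose by 0.98 in HFD against CD (limma adjusted p = 0.00896) and by 0.91 in HFD_IO against HFD (0.0163). The phosphatase genes of the inhibitory arm, also named for their role, rose in both steps: Inpp5d by 0.55 and 1.05, and Ptpn6, which encodes SHP-1, by 1.15 and 0.96. In HFD_IO against CD 21 rose and none fell, where 17.5% of all tested genes rose.

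**Figure D4:**
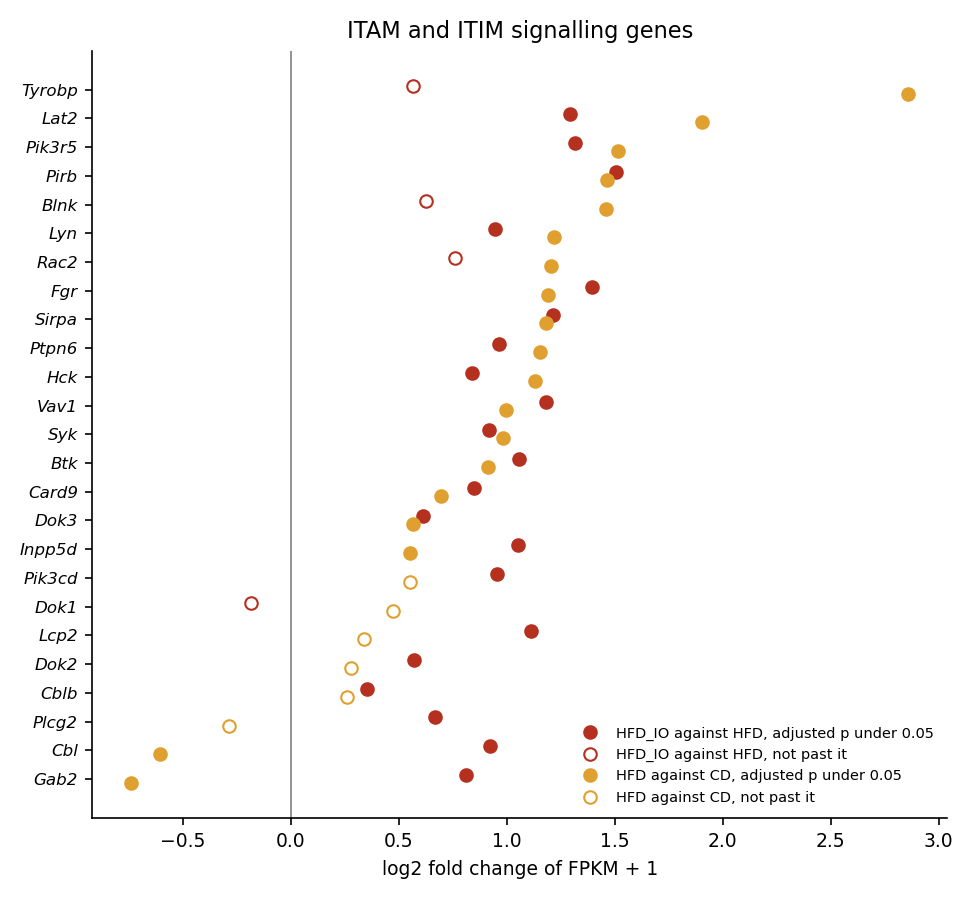
Log2 fold change of FPKM + 1 of 25 signalling genes in HFD_IO against HFD and in HFD against CD, ordered by the change in HFD against CD, with filled points where the limma adjusted p is under 0.05. In HFD_IO against HFD the only change below 0 is that of Dok1, which is not past the threshold, whereas Cbl, Gab2 and, not past the threshold, Plcg2 are below 0 in HFD against CD.

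The gamma chain also serves other receptors. Of 13 listed partners of Fcer1g, 6 passed the filter on low values. Of these 6, 3 rose in HFD against CD, where 21.8% of all tested genes did. In HFD_IO against HFD 3 rose, where 14.1% of all tested genes did. The C-type lectin gene Clec4d was at 60.4, 45.0 and 32.8 FPKM in HFD_IO aortas, at 6.11, 6.06 and 4.31 FPKM in HFD aortas and at 0.78, 0.21 and 0.58 FPKM in CD aortas, with a rise of 2.83 in HFD_IO against HFD (limma adjusted p = 0.000352). Clec4n, which encodes dectin-2, and Clec4e, which encodes Mincle, rose there by 1.33 and 1.11. In HFD against CD Clec4d, Clec4n and Pira2 rose by 2.09, 1.55 and 0.92. In HFD_IO against CD 5 rose, where 17.5% of all tested genes did, and 3 rose without HFD_IO_1 or HFD_IO_2. The count in HFD_IO against HFD was 1 without HFD_IO_1 or HFD_IO_2. Fcer1a, the IgE-binding chain of mast cells, did not exceed 1.97 FPKM in any library.

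Other receptors for immunoglobulin did not move as a block. Of 13 listed genes 5 were tested. Fcgrt, the neonatal Fc receptor that protects IgG from breakdown, was at 53.5, 82.2 and 85.3 FPKM in HFD_IO aortas, at 131, 113 and 165 FPKM in HFD aortas and at 82.7, 88.3 and 90.4 FPKM in CD aortas. It rose by 0.62 in HFD against CD (limma adjusted p = 0.0329) and fell by 0.89 in HFD_IO against HFD (0.0113), the direction opposite to that of the Fc gamma receptors. Fcrls, an Fc receptor-like gene of macrophages, rose by 0.89 in HFD against CD and by 1.21 in HFD_IO against HFD. Of these genes 2 rose in HFD against CD, where 21.8% of all tested genes did, and 1 rose without HFD_1, CD_1, CD_2 or CD_3. Trim21, the cytosolic Fc receptor, changed by -0.14 and 0.07 in those comparisons (limma adjusted p = 0.495 and 0.779).

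Immunoglobulin transcripts varied widely between aortas of one group. The list holds genes of IgG and of other classes, and Ighe and Ighg1 were not tested. Of 13 listed immunoglobulin genes, constant regions and Jchain, 11 were tested and none was called in any of the 3 comparisons by limma or by voom on the recovered reads, and 0 had an unadjusted p under 0.05. Without HFD_1 the count was 2 in HFD against CD, and without HFD_IO_3 it was 1 in HFD_IO against CD. Igkc, the kappa light chain, was at 35.2, 296 and 52.3 FPKM in HFD_IO aortas, at 19.7, 659 and 95.1 FPKM in HFD aortas and at 40.4, 12.5 and 8.36 FPKM in CD aortas. HFD_IO_2 and HFD_2 were the high aortas of their groups for Igkc and for Ighg2c, an IgG heavy chain, which stood at 40.4 FPKM in HFD_IO_2 and at 21.4 FPKM in HFD_2. Of these aortas HFD_IO_2 was also the highest for every Fc gamma receptor, while HFD_2 was above HFD_1 for Fcgr1 and Fcgr4 and below it for the other members.

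Among 13 known regulators of Fc gamma receptor genes, 12 were tested. Of all tested genes 21.8% rose in HFD against CD, and 14.1% rose and 14.5% fell in HFD_IO against HFD. In HFD against CD 7 rose and none fell, among them Spi1 (1.57), Irf8 (1.55), Cebpb (1.53), Il10ra (1.43), Cebpa (1.20) and Ifngr2 (0.91). The 4 that rose in HFD_IO against HFD were C5ar1 (1.55), a receptor for the complement fragment C5a that is known to raise activating Fc receptors on mouse macrophages, Il4ra (1.43), Spi1 (1.12) and Il10ra (0.88), while Cebpb fell by 0.65. Irf1, which acts in the interferon gamma response that is known to raise Fcgr1 and Fcgr4 in mouse macrophages, changed by -0.30 in HFD against CD (limma adjusted p = 0.175) and by 0.17 in HFD_IO against HFD (limma adjusted p = 0.452). Ifng itself reached at most 0.18 FPKM and was not tested.

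Macrophage markers moved with the members. Of all tested genes 21.8% rose in HFD against CD, 14.1% in HFD_IO against HFD and 17.5% in HFD_IO against CD. Of 15 markers, all tested, 11 rose in HFD against CD, 12 in HFD_IO against HFD and 13 in HFD_IO against CD, and none fell. They summed to between 5134 and 8679 FPKM in HFD_IO, between 3152 and 5156 FPKM in HFD and between 696 and 761 FPKM in CD, and HFD_IO_2 and HFD_3 were the highest and the lowest of their groups for the markers as they were for Fcgr3. More cells of a type and more RNA per cell cannot be told apart in whole aortas. The mean log2 level of the markers was 6.28 to 6.77 in HFD_IO, 5.50 to 5.76 in HFD and 4.27 to 4.34 in CD, and the groups account for 97.7% of its variance. With this mean as a covariate no more than 1 of 13883 genes was called in any comparison, and the 5 members were not past the threshold. At this overlap of group and marker level, the diet and the abundance of macrophage transcripts cannot be told apart.

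Each member was also set beside the markers within its library. With 3 libraries against 3 the exact permutation p cannot be below 0.1, so none of these 15 tests could pass the threshold. The log2 level of Fcgr3 minus the marker mean was 0.65 ± 0.217 in HFD_IO, 0.31 ± 0.0820 in HFD and -0.20 ± 0.176 in CD (SD, n = 3 each), with no overlap between groups and an exact permutation p of 0.1 in each comparison, the smallest possible, or 0.167 adjusted over 15 tests. Fcer1g was at 1.43 ± 0.153 in HFD_IO, 0.88 ± 0.172 in HFD and 0.68 ± 0.160 in CD (SD, n = 3 each), a difference of 0.55 for HFD_IO against HFD (exact permutation p = 0.1) and of 0.20 for HFD against CD (exact permutation p = 0.3). Fcgr4 differed by 0.78 in HFD against CD (exact permutation p = 0.1) and by 0.15 in HFD_IO against HFD (exact permutation p = 0.5). Fcgr2b differed by 0.13 in HFD against CD (exact permutation p = 0.1), or by 0.27 with a pseudocount of 0.1, and by 0.17 in HFD_IO against HFD (exact permutation p = 0.4). Fcgr1 was at -2.57 ± 0.204 in HFD_IO, -2.58 ± 0.246 in HFD and -2.39 ± 0.216 in CD (SD, n = 3 each), so its level beside the markers differed between groups by no more than the spread within them.

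**Figure D5:**
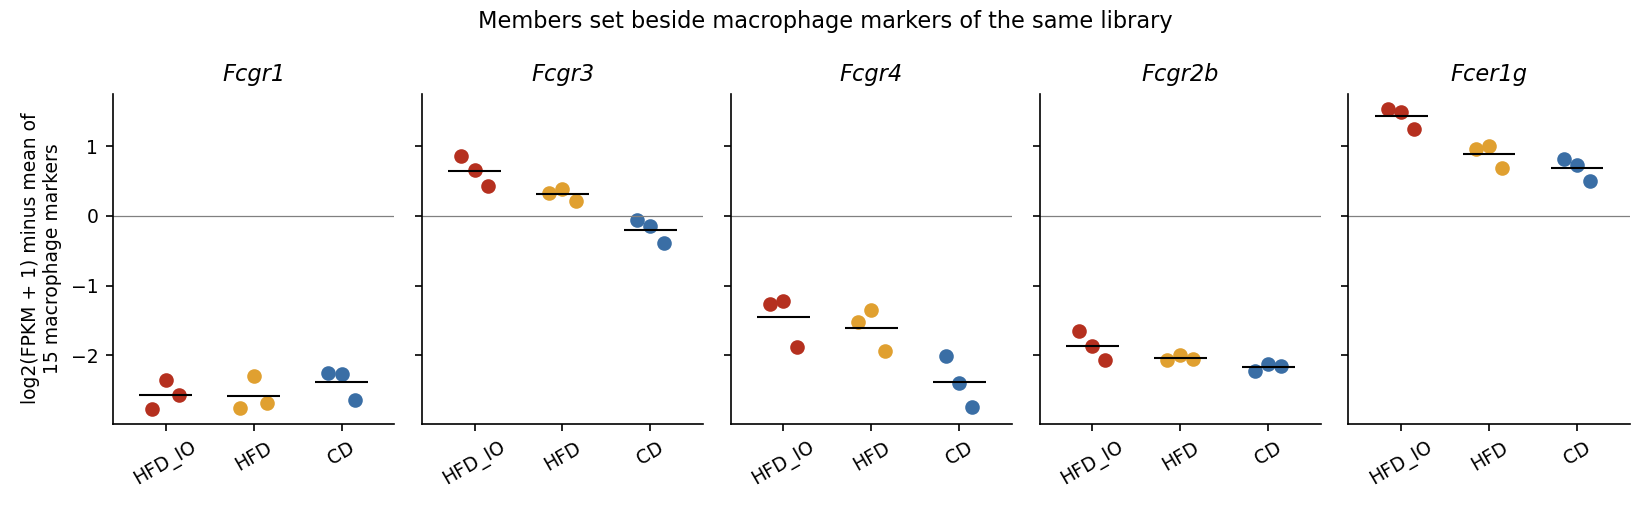
Log2(FPKM + 1) of each member minus the mean over 15 macrophage markers in the same library, with HFD_IO, HFD and CD from left to right and a black line at each group's mean. Fcgr3 has separate groups, with means of 0.65 in HFD_IO, 0.31 in HFD and -0.20 in CD, while the groups of Fcgr1 overlap.

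Some markers of other cells that carry these receptors also moved. Of all tested genes 21.8% rose and 17.6% fell in HFD against CD, and 14.1% rose and 14.5% fell in HFD_IO against HFD. In HFD_IO against CD 17.5% rose and 15% fell. Mast cell markers summed to between 20.8 and 48.9 FPKM in HFD_IO, between 47.3 and 80.4 FPKM in HFD and between 19.7 and 26.1 FPKM in CD, and of 5 tested 4 rose in HFD against CD, Cma1 (1.55), Tpsb2 (1.33), Mcpt4 (1.32) and Cpa3 (1.14), while 3 fell in HFD_IO against HFD. Neutrophil markers summed to between 38.6 and 128 FPKM in HFD_IO, between 27.7 and 33.2 FPKM in HFD and between 10.9 and 51.2 FPKM in CD, with HFD_IO above HFD without overlap. Of 8 tested, none was called by limma or voom in HFD against CD, where 1 had an unadjusted p under 0.05, and Csf3r and Mmp8 rose in HFD_IO against HFD by 1.11 and 1.03 and in HFD_IO against CD by 1.56 and 1.57. The list median was 1.06 in HFD_IO against HFD and 1.43 in HFD_IO against CD. The defining neutrophil genes Ly6g, Elane and Mpo were below the filter. Natural killer cell markers summed to between 1.07 and 3.17 FPKM in HFD_IO, between 1.91 and 5.25 FPKM in HFD and between 1.56 and 7.12 FPKM in CD, and 1 of 7 was tested. B cell markers summed to at most 8.42 FPKM in HFD_IO and 9.78 FPKM in CD, while HFD_2 reached 102 FPKM. Dendritic cell markers summed to between 60.3 and 71.4 FPKM in HFD_IO, between 14.9 and 31.7 FPKM in HFD and between 8.82 and 11.3 FPKM in CD, with no overlap between groups. Of 4 tested, the markers Zbtb46 and Clec9a fell in HFD against CD, Zbtb46 rose in HFD_IO against HFD, and Itgax, which macrophages also express, rose in each comparison. No marker of these lists was at 0 in every library, and their part in the rise of the members was not tested.

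Genes near the members on the chromosome moved in both directions. Within 200 kb of a member's start lie 91 other genes of the table, and 30 of them were tested. In HFD against CD 7 rose and 5 fell, with a median of 0.10, where 21.8% of all tested genes rose and 17.6% fell. Of the same 30, 5 rose and 6 fell in HFD_IO against HFD, with a median of -0.07, where 14.1% of all tested genes rose and 14.5% fell. These shares are near those of all genes. Pcp4l1, 38.1 kb from the start of Fcer1g, fell by 1.03 in HFD_IO against HFD. Of the neighbours Arhgap30 had the largest rise in HFD_IO against HFD, 1.06.

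By Pearson's r of log2(FPKM + 1) over the 9 libraries, a description in which the points share their 3 groups, the members resembled each other at 0.966 to 0.996. The closest other genes were Ctsc (0.991), Lyn (0.990) and Selplg (0.987) for Fcgr1, and Ttyh2 (0.996), Dram1 (0.996) and Ms4a6d (0.995) for Fcgr2b. For Fcgr3 they were Ms4a6d (0.998), Slc7a7 (0.995) and Il1rn (0.995), for Fcgr4 Rab20 (0.996), Ms4a7 (0.994) and Ly86 (0.993), and for Fcer1g Havcr2 (0.995), Pla2g7 (0.994) and Tpd52 (0.994). Fcgr1 and Fcgr2b were the least alike of the members, and Fcgr2b and Fcgr3 the most alike.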

How the data were processed

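RNA sequencing of 9 aortas (3 groups of 3) was used. Libraries were NEBNext preparations of Qiagen-purified RNA, per the labels' protocols. Per the submitters' processing notes, reads were aligned with HISAT2, and the build named there is hg38, a human build, although 54409 of 54532 identifiers are in mouse GENCODE M21 and 98.3% of those have its coordinates. Counting tool and strand setting are not given in the sources used. The authors deposited FPKM per library with the length of each gene. Multiplying FPKM by that length gave whole reads for 100% of values (tolerance 0.05 of a read), and the reads recovered so (16660963 to 18308450 per library) served for depth and for voom. Columns were assigned to groups by name only.

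The 13883 genes reaching 1 FPKM in 3 or more libraries were fitted as log2(FPKM + 1) with limma 3.58.1 in R 4.3.3, with 3 group means, a mean-variance trend and Benjamini-Hochberg adjustment per comparison. The addition of 1 understates changes of low genes. Single differences were tested by two-sided exact permutation. The calculation was tested on simulated data. No replicate pair agreed within sampling noise (chi-square per degree of freedom 6.41 or more). The members and gene lists were chosen with earlier results of these data known. Genes named from lists are the called members with the largest changes, at most 6 per list and comparison, except genes named for their role (Syk, Inpp5d, Ptpn6, Fcer1a, Trim21, Igkc, Ighg2c, Irf1, Ifng) and, after their values were seen, Cbl, Gab2, single marker genes and neighbours. A few listed genes and neighbours are not reported here. Likeness names the 3 genes with the highest Pearson r, without predicted genes and immunoglobulin segments. Alternatives were other pseudocounts, filters, scalings, variance models, covariates and omitted libraries.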

Additional observations from a re-analysis of the deposited data

How the results depend on the processing

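Over alternatives without the macrophage covariate, 254 of 270 member values kept their direction and side of the threshold, 16 lost significance and 0 changed sign. For Fcgr4 in HFD_IO against HFD the call was lost with a pseudocount of 0.1 (1.04), no filter on low values (1.00), only the 2 groups compared (1.00), the white adipocyte covariate (1.17), and without CD_1 and HFD_3 together (0.77). For Fcgr1 in HFD_IO against HFD it was lost with no filter (0.86) and without CD_1 and HFD_3 together (0.75), and in HFD against CD with the white adipocyte covariate (0.82). In HFD_IO against HFD 3 of 5 members were called with no filter and without CD_1 and HFD_3 together. Without 1 library, the changes in HFD_IO against HFD ranged from 0.73 to 1.31 for Fcgr4 and from 0.61 to 1.01 for Fcgr1, and 3 to 5 members were called.

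With the macrophage covariate 1 gene was called in HFD against CD, 0 in HFD_IO against HFD and 1 in HFD_IO against CD, with 0 members and 0 genes of each list called. The changes in HFD against CD, HFD_IO against HFD and HFD_IO against CD were then -0.82, -0.38 and -1.20 for Fcgr1, 0.050, 0.12 and 0.17 for Fcgr2b, 0.16, 0.12 and 0.28 for Fcgr3, -0.81, -0.85 and -1.67 for Fcgr4, and -0.43, 0.14 and -0.29 for Fcer1g. The groups account for 97.7% of the variance of this covariate.

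With the white adipocyte covariate 2062 genes were called in HFD against CD and 1047 in HFD_IO against HFD, of the signalling genes 12 and 6, and of the other immunoglobulin receptors 0 and 1. Other immunoglobulin receptors numbered 1 in HFD against CD with no filter, TPM, quantile normalization, the length trend removed or without CD_1 and HFD_3 together. At an FPKM minimum of 5, 1 of them and 2 receptors that pair with Fcer1g were called in HFD_IO against CD. Without 1 library, 3605 to 6050 genes were called in HFD against CD, 2247 to 3619 in HFD_IO against HFD and 2967 to 4935 in HFD_IO against CD. The signalling genes ranged from 12 to 21 in HFD_IO against HFD. Partners of Fcer1g ranged from 1 to 3 in HFD_IO against HFD and from 3 to 4 in HFD_IO against CD. Other immunoglobulin receptors ranged from 1 to 2 in HFD against CD, and immunoglobulin genes from 0 to 2 in HFD against CD and from 0 to 1 in HFD_IO against CD.

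With a pseudocount of 0.1, Fcgr3 minus Fcgr2b was 0.21 in HFD against CD and 0.33 in HFD_IO against CD, Fcgr1 minus Fcer1g was -0.19 and -0.65, Fcgr4 minus Fcer1g was 0.87 and 0.52, and Fcgr2b minus Fcer1g was 0.13, where it had been -0.07, and -0.20. Fcgr2b minus the macrophage markers was 0.27 in HFD against CD. Causes of these moves were not tested. Planned edgeR and DESeq2 fits were not run, and the recovered reads were fitted with voom in their place; voom, the length correction and the joint omission of CD_1 and HFD_3 were chosen after seeing the data. No paired analysis was possible because the labels number the aortas 1 to 9 and the groups share no number. Depth limits Fcgr4 in CD most, at 43 reads in CD_3.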
